A study of Mus musculus with 15 samples.

Results

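Of the 18073 genes in a table of mouse aortic valve expression, 10 were chosen by name as a core of the bone morphogenetic protein (BMP) pathway, and all 10 were found. They were the ligands Bmp2, Bmp4 and Bmp6, the receptors Bmpr1a and Bmpr2, the signal transducers Smad1 and Smad5, the inhibitor Smad6, and the response genes Id1 and Id3. RNA came from leaflets of 15 C57BL/6 mice aged 2 months, in 4 groups named by their genotype labels. The group N1het_TercG2 held 4 mice labelled with 1 working copy of Notch1 and short telomeres, as generation 2 Terc nulls. N1WT_TercG2 held 3 Terc nulls of generation 2 labelled with intact Notch1. The Notch1 levels of these 2 groups, given below, run against their labels. N1het_TercWT held 4 mice labelled heterozygous for Notch1 with intact Terc and long telomeres. N1WT_TercWT held 4 mice labelled with both genes intact. Notch1 is a receptor needed for normal valve development, and Terc is the RNA template of telomerase. The labels do not give the part of Notch1 that its mutant allele lacks. Each mouse gave 3 leaflets, and the series is about telomere length as a modifier of the loss of 1 copy of Notch1.

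BMPs are secreted dimers that bring type I and type II receptor kinases together on the cell surface. The type II receptor activates the type I receptor, which phosphorylates Smad1 and Smad5, and these enter the nucleus with Smad4 and switch on target genes. The Id genes are standard early targets, and Smad6 is both a target and an inhibitor that closes a feedback loop. In the heart BMP signals start the formation of the valve cushions, and in adult valves the same ligands have been tied to osteogenic change and calcification. Mice without Smad6 develop thickened valves and bone in the outflow tract.

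The values are FPKM, in which fragment counts are divided by the length of the transcript and by library size, with a single value for each gene in each group, pooled or averaged by the authors. The spread between mice and the read depth are unknown, so that no value below has an error and no difference has a test. The 15 libraries therefore count as 1 value in each of 4 groups. The authors' deposited table also marks the genes they called different in 5 pairs of groups. Differences are given as log2(FPKM + 1) of one group minus that of the other, and a difference of at least 1 was counted, about a 2-fold change for these genes.

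In both short-telomere groups Terc had a listing of 0, against 4.52 and 1.42 FPKM in the N1het_TercWT and N1WT_TercWT groups. Notch1 stood at 25.1 FPKM in heterozygous and 39.1 FPKM in wild type valves with long telomeres. With short telomeres it stood at 23.3 FPKM in the valves labelled heterozygous and 16.6 FPKM in those labelled wild type, the opposite order to the labels, and the short-telomere groups are named below by their labels. Markers of valve interstitial cells and of endothelium were above 0 in all groups, with summed levels of 5040 to 8166 FPKM for 12 interstitial and fibroblast genes and 317 to 654 FPKM for 12 endothelial genes. Genes of heart muscle, atrium, smooth muscle, mesothelium, macrophages, platelets, T cells, neutrophils and erythroid cells were also measured in these leaflets. The share of summed FPKM in mitochondrially encoded genes was 33.0% and 30.5% in the short-telomere groups labelled heterozygous and wild type, against 9.52% and 13.9% in heterozygous and wild type valves with long telomeres. In whole leaflets, fewer cells of a type and less RNA per cell cannot be told apart.

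**Figure D1:**
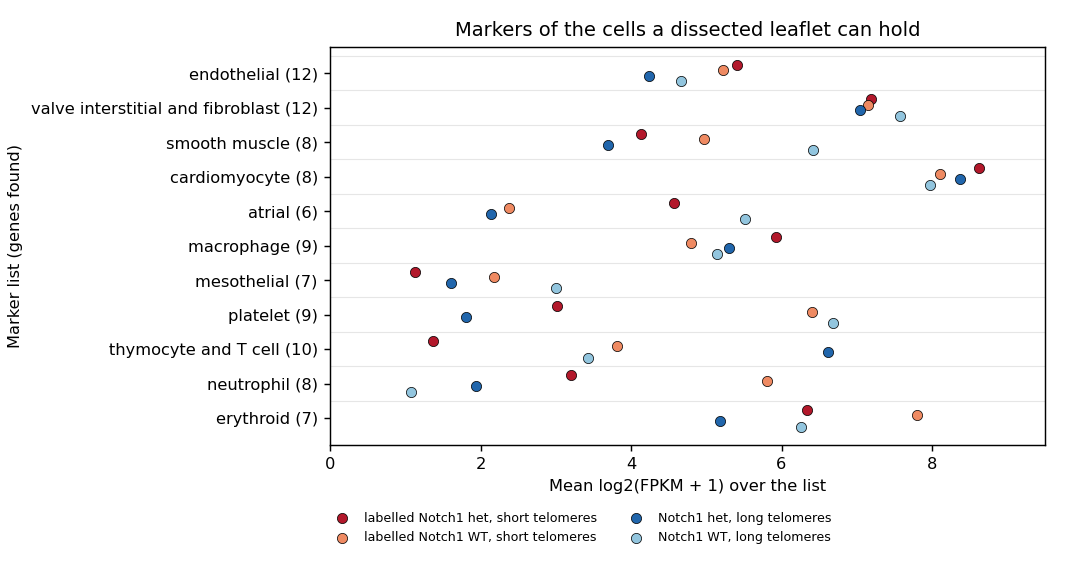
Mean log2(FPKM + 1) of each marker list (horizontal axis, 1 point per group, number of genes found in brackets on the vertical axis). Interstitial markers lie between 7.05 and 7.58 in the 4 groups. Platelet, T cell, neutrophil, atrial, smooth muscle, erythroid and mesothelial markers are spread more widely. Endothelial markers are higher in both short-telomere groups.

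All 10 genes were well above the floor of the table. Id3, an inhibitor of basic helix-loop-helix transcription factors, had the highest level of the 10 in every group, at 178 FPKM in the short-telomere valves labelled heterozygous, 167 FPKM in those labelled wild type, 113 FPKM in heterozygous valves with long telomeres and 119 FPKM in wild type valves with long telomeres. Bmpr2, the type II receptor, came second in every group, between 61.1 and 82.4 FPKM. Smad1 was the lowest or next to lowest, between 10.1 and 12.9 FPKM. The lowest level of any member was that of Bmp2 in the short-telomere valves labelled wild type, 7.15 FPKM, which was still higher than 57.9% of all genes in that group.

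The genes differed in how far apart their groups lay. For Bmp2 the highest group was 5.95 times the lowest, for Smad6 2.32 times, for Bmp6 2.23 times and for Bmp4 2.04 times. The other 6 ranged from 1.28 times for Smad1 to 1.71 times for Id1. The median over the 10 genes was 1.65 times, against 1.96 times over the 6843 genes with a mean of at least 10 FPKM, a set that holds all 10. Bmp2, Smad6, Bmp6 and Bmp4 were the 4 members above that median. In 7 of the 10, Bmp2, Bmp6, Bmpr1a, Bmpr2, Smad1, Id1 and Id3, the highest level was in the short-telomere valves labelled heterozygous. Of the exceptions, Bmp4 and Smad5 were highest in the short-telomere valves labelled wild type, and Smad6 in wild type valves with long telomeres. The share of all genes highest in each group was not counted, and the order depends on scaling. With groups scaled to their totals without mitochondrially encoded genes, Bmpr1a (-0.01) and Smad1 (-0.04) were lower with both changes than with neither. With median scaling, Bmp6 stood at -0.04 between the short-telomere groups, labelled heterozygous minus labelled wild type.

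**Figure D2:**
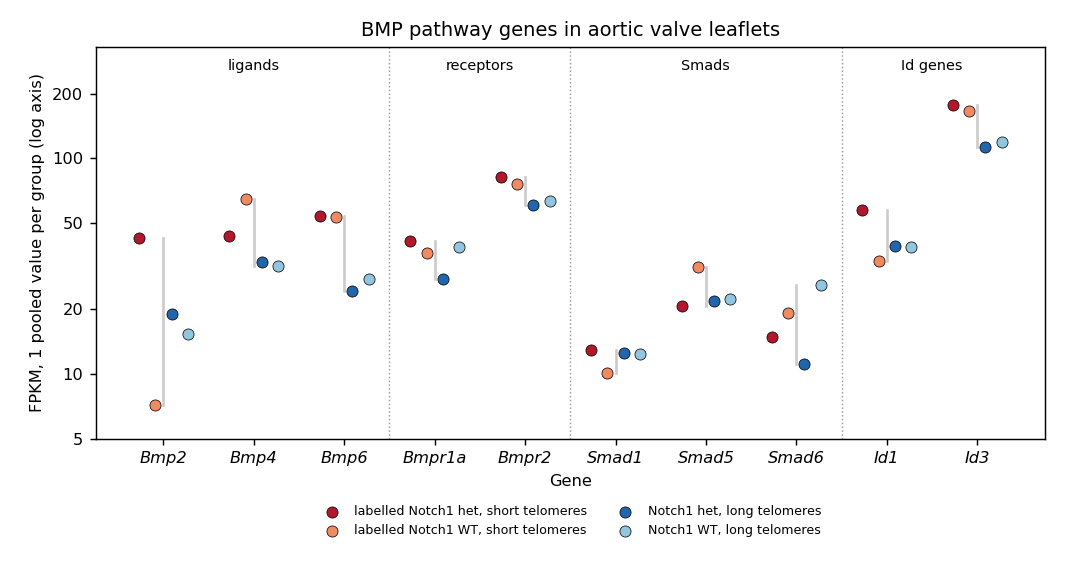
FPKM of each member on a log axis, with 1 point per group and a grey line from the lowest to the highest group. Bmp2 spans 7.15 to 42.5 FPKM, Smad1 only 10.1 to 12.9 FPKM, and Bmp6 and Id3 are higher in both short-telomere groups than in both long-telomere groups.

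The authors' deposited table called 0 of the 10 genes in any of the 5 comparisons. Over all genes 1.58% were called in at least 1 comparison. The called genes all differed by at least 4.25-fold, and only Bmp2 among the members reached that size, in 1 comparison.

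The windows before the start sites of Smad6 and Bmp4 are given as examples, and both hold the motif marked below. Their spreads between groups were among the wider of the 10 genes. Bmp6 had a wider spread than Bmp4, 2.23 against 2.04 times, but its window lacked that motif. Id3 and Smad5, whose windows also held it, had spreads of 1.58 and 1.52 times, below the median of 1.65 times over the 10 genes. The 250 bases before each start are shown, 5′ to 3′ on the strand of the gene, from RefSeq on GRCm38.p6, with the short GC-rich Smad motif GGAGCC or its reverse complement GGCTCC in capitals.
Smad6, chr9:64022060-64022309, minus strand: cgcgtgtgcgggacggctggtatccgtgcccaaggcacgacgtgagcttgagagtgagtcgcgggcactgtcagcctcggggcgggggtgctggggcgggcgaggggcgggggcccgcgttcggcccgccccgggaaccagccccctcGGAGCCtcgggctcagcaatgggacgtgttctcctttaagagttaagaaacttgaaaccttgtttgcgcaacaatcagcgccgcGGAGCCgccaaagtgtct
Bmp4, chr14:46390670-46390919, minus strand: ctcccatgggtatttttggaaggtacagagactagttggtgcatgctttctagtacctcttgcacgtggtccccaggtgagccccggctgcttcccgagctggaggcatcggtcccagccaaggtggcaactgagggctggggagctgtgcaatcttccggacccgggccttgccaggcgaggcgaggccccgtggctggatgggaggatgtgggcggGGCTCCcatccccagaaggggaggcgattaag
The Smad6 window held the motif at positions -102 and -18 from the start, and the Bmp4 window held it once, at position -32. Both windows are rich in G and C, at 66.8% and 63.2%. The 8 members found in the promoter table had 10 entries there. Bmp4, Id3, Smad5 and Smad6 held GGAGCC on either strand, in 4 of the 10 entries, and 26.0% of all 32851 promoter windows of the same length held it. The palindrome GGCGCC, another BMP-type Smad motif, was found for Bmpr1a, Bmpr2 and Smad5 and in 9.59% of all windows. The Smad motif CAGAC, with its reverse complement GTCTG, was found for Bmp6, Id3 and Smad5 and in 42.2% of all windows. TGGGAA, the core bound by the Notch partner Rbpj, with its reverse complement TTCCCA, was found for Bmpr1a, Bmpr2 and Smad5 and in 21.6% of all windows. These are matches of letters, and Bmp2 and Id1 had no entry.

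With long telomeres, Smad6 was the one member that differed by at least 1 between the Notch1 genotypes. It was at 11.1 FPKM in heterozygous and 25.8 FPKM in wild type valves, a log2 difference of -1.14, and 3.33% of the genes with a mean of at least 10 FPKM had a lower value in this comparison. The type I receptor Bmpr1a was at 27.6 FPKM in heterozygous and 38.7 FPKM in wild type valves (-0.47). The ligands differed little. Bmp2 was at 18.9 and 15.4 FPKM in heterozygous and wild type valves (0.28), Bmp4 at 33.0 and 31.7 FPKM (0.05), and Bmp6 at 24.4 and 27.5 FPKM (-0.17). The response genes Id1, at 39.1 and 39.0 FPKM, and Id3, at 113 and 119 FPKM, lay close together in the same groups. Smad1 (12.5 and 12.4 FPKM), Smad5 (21.9 and 22.3 FPKM) and Bmpr2 (61.1 and 63.3 FPKM) did so too.

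Thus 0 of the 10 members were higher and 1 was lower by at least 1. Of all genes, 10.9% were higher and 7.53% lower by that much, and of the genes with a mean of at least 10 FPKM 7.72% and 5.14%. The median difference of the members was -0.04, beside 0.09 over all genes. The authors' deposited table called 0.415% of all genes here and 0 members. Of 43 other genes on lists of BMP ligands, receptors, Smads, antagonists and response genes, 0 were higher and 10 lower by at least 1, with a median of -0.34. Of the 19 with a mean of at least 10 FPKM, 0 were higher and 1 was lower.

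The response list of 12 measured genes, which includes Smad6, Id1 and Id3, had 10 lower, 4 of them by at least 1, and a median of -0.65. Over all genes, 7873 of 18073 were lower in this comparison. Between the short-telomere groups the list had 8 higher and 4 lower (median 0.25). For telomere length, it had 8 higher and 4 lower in valves labelled heterozygous (median 0.46). In those labelled wild type it had 3 higher and 9 lower (median -0.35). With both changes against neither, 5 were higher and 7 lower (median -0.61). Besides Smad6, the lower genes with long telomeres included Id4, another Id family member, at 12.4 FPKM in heterozygous and 38.2 FPKM in wild type valves. The ligands Bmp3 (0.318 and 5.13 FPKM) and Gdf7 (4.40 and 20.1 FPKM), the type I receptor Bmpr1b (0.0371 and 1.94 FPKM) and the secreted inhibitor Sost (1.41 and 21.9 FPKM) were also low in heterozygous valves. Bmp10, a ligand of atrial muscle in the adult heart, was at 0.162 FPKM in heterozygous and 35.9 FPKM in wild type valves, and it was the one gene of the pathway lists that the authors' deposited table called. In the same comparison 10 of 12 endothelial markers were lower (median -0.31), as were 11 of 12 interstitial and fibroblast markers (median -0.57), 8 of 8 smooth muscle markers (median -2.80), 7 of 7 mesothelial markers (median -1.52), 6 of 7 erythroid markers (median -1.25), 9 of 9 platelet markers (median -5.11) and 6 of 6 atrial markers (median -3.47), a list that includes Bmp10 itself. Higher in heterozygous valves were 10 of 10 T cell markers (median 3.20), 8 of 8 neutrophil markers (median 0.73), 6 of 9 macrophage markers (median 0.18) and 8 of 8 cardiomyocyte markers (median 0.36). Their part in the levels of Smad6 and the other pathway genes was not tested.

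With short telomeres, Bmp2 differed most between the Notch1 labels. This ligand, which can drive osteoblast differentiation, was at 42.5 FPKM in the valves labelled heterozygous and 7.15 FPKM in those labelled wild type. That was a 5.95-fold ratio and a log2 difference of 2.42, above the value of 98.6% of the genes with a mean of at least 10 FPKM. Id1 was at 57.4 FPKM in the valves labelled heterozygous and 33.5 FPKM in those labelled wild type (0.76). Bmp4 lay the other way, at 43.8 FPKM in the valves labelled heterozygous and 64.6 FPKM in those labelled wild type (-0.55), as did Smad5 at 20.6 and 31.4 FPKM in the same groups (-0.59).

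Bmp6 was nearly level, with 54.3 FPKM in the valves labelled heterozygous and 53.5 FPKM in those labelled wild type. Smad6 was at 14.8 and 19.1 FPKM in the same groups (-0.35), Smad1 at 12.9 and 10.1 FPKM (0.32), Bmpr1a at 41.3 and 36.6 FPKM (0.17), Bmpr2 at 82.4 and 76.0 FPKM (0.12), and Id3 at 178 and 167 FPKM (0.09). The inhibitor Smad6 was thus lower in the groups carrying the heterozygous label in both telomere settings, by 1.14 with long and by 0.35 with short telomeres on the log2 scale.

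The count was 1 member higher and 0 lower by at least 1. Of all genes, 12.5% were higher and 10.8% lower, and of the genes with a mean of at least 10 FPKM 10.3% and 9.24%. The median difference of the members was 0.10, beside 0.06 over all genes. The authors' deposited table called 0.476% of genes in this comparison and did not call Bmp2, although its ratio passed the smallest among called genes, 4.30-fold. Of the 122 genes with a mean of at least 10 FPKM that were higher by at least the ratio of Bmp2, the authors' deposited table called 5. Among the other 43 pathway genes 4 were higher and 3 lower by at least 1. The 4 higher genes were Fst, the secreted activin and BMP binder follistatin (41.1 FPKM in the valves labelled heterozygous and 10.8 FPKM in those labelled wild type), Msx2, a homeobox target of BMP (2.20 and 0.0664 FPKM), Crim1 (31.2 and 14.5 FPKM) and the co-receptor Hfe2 (19.4 and 9.06 FPKM). The 3 that were lower were the ligand Bmp5 (1.23 and 17.8 FPKM), the receptor-activated Smad9 (1.72 and 8.31 FPKM) and the circulating ligand Gdf2 (0.0510 and 1.50 FPKM). Of the 19 with a mean of at least 10 FPKM, 3 were higher and 0 lower. In the same comparison 8 of 9 macrophage markers were higher (median 1.27), as were 5 of 6 atrial markers (median 2.28), 10 of 12 endothelial markers (median 0.22) and 8 of 8 cardiomyocyte markers (median 0.36). Lower were 9 of 9 platelet (median -3.65), 10 of 10 T cell (median -2.80), 8 of 8 neutrophil (median -2.90), 7 of 7 mesothelial (median -1.11), 8 of 8 smooth muscle (median -0.84) and 7 of 7 erythroid markers (median -1.49). Interstitial and fibroblast markers were lower in 8 of 12 (median -0.12). Their part in the Bmp2 level was not tested.

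**Figure D3:**
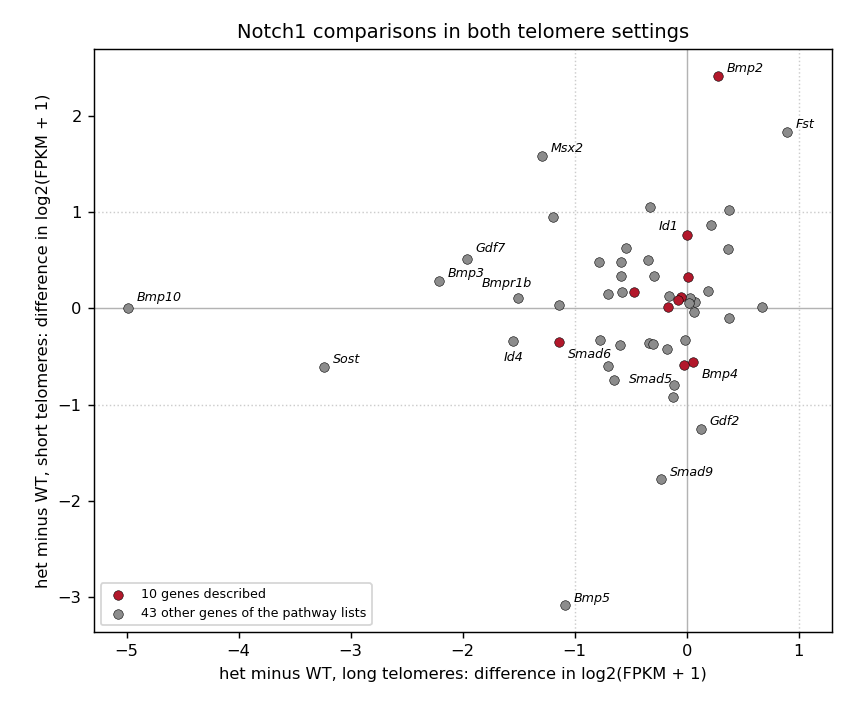
Each point is a gene of the pathway lists, with its difference in log2(FPKM + 1) between valves labelled heterozygous and wild type. Long telomeres are on the horizontal axis and short telomeres on the vertical axis. Bmp2 lies at 0.28 and 2.42, Smad6 at -1.14 and -0.35, and the other 43 genes (grey) include Bmp10 at -4.99 with long telomeres and Bmp5 at -3.08 with short telomeres.

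The mix of ligands differed between short and long telomeres in valves labelled Notch1 wild type. Bmp4 was at 64.6 FPKM with short and 31.7 FPKM with long telomeres, a ratio of 2.04 and a log2 difference just past 1. Bmp6, which besides its role in bone is made by endothelium of the liver to regulate iron, was at 53.5 FPKM with short and 27.5 FPKM with long telomeres (0.94). Bmp2 was lower, at 7.15 FPKM with short and 15.4 FPKM with long telomeres (-1.01).

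Downstream, Smad5 was at 31.4 FPKM with short and 22.3 FPKM with long telomeres (0.48) and Id3 at 167 and 119 FPKM (0.48). Smad6 was at 19.1 FPKM with short and 25.8 FPKM with long telomeres (-0.42), Smad1 at 10.1 and 12.4 FPKM (-0.27), and Id1 at 33.5 and 39.0 FPKM (-0.21). The receptors Bmpr2 and Bmpr1a differed by 0.26 and -0.08. As deposited, 5 of the genes were higher and 5 lower with short telomeres, beside 6619 higher and 11049 lower over all genes. With median scaling, 7 members were higher and 3 lower.

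By at least 1, 1 member was higher and 1 lower. Of all genes, 8.9% were higher and 20.9% lower, and of the genes with a mean of at least 10 FPKM 8.84% and 12.9%. The median of the members was 0.09, beside -0.23 over all genes. Relative to that shift Bmp2 stood at -0.78, Bmp4 at 1.23 and Bmp6 at 1.17, which makes 2 members higher and 0 lower. With groups scaled to their totals without mitochondrially encoded genes, Bmp4 stood at 0.87, and 0 were higher and 1 lower. The authors' deposited table called 0.686% of all genes and 0 members. Of the other 43 pathway genes 1 was higher by at least 1, Smad9 at 8.31 FPKM with short and 2.86 FPKM with long telomeres, and 14 were lower. Of the 19 with a mean of at least 10 FPKM, 0 were higher and 3 lower. The lower genes included Gdf7 (0.838 and 20.1 FPKM), Sost (2.32 and 21.9 FPKM), Msx2 (0.0664 and 3.82 FPKM), Bmp3 (0.409 and 5.13 FPKM) and the decoy receptor Bambi (1.97 and 9.67 FPKM). Bmp10 was listed at 0 with short and at 35.9 FPKM with long telomeres, and the authors' deposited table called it different. Of the endothelial markers 10 of 12 were higher (median 0.56), and of the atrial markers 6 of 6 were lower (median -2.66). Neutrophil markers were higher in 8 of 8 (median 4.04) and erythroid markers in 6 of 7 (median 1.37), and smooth muscle markers were lower in 8 of 8 (median -1.57). Cardiomyocyte markers were higher in 7 of 8 (median 0.08) and T cell markers in 6 of 10 (median 0.39). Lower were 8 of 12 interstitial and fibroblast (median -0.15), 8 of 9 macrophage (median -0.32), 6 of 7 mesothelial (median -0.52) and 6 of 9 platelet markers (median -0.28). Their part in the ligand levels was not tested.

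In valves labelled Notch1 heterozygous, 9 of the 10 genes were higher with short telomeres, 10 with median scaling and 8 with scaling without mitochondrially encoded genes. The count rests on the label of the short-telomere group, whose Notch1 level runs against it. With the short-telomere labels exchanged, Bmp2, Smad1 and Id1 would be lower with short telomeres and the other members higher. Bmp2 would be at 7.15 FPKM with short and 18.9 FPKM with long telomeres. Smad1 would be at 10.1 and 12.5 FPKM, and Id1 at 33.5 and 39.1 FPKM. As deposited and labelled, 6206 of all 18073 genes were higher and 11732 lower. Of the 6843 genes with a mean of at least 10 FPKM, 3075 were higher and 3768 lower. Bmp2 was at 42.5 FPKM with short and 18.9 FPKM with long telomeres, a log2 difference of 1.13, and Bmp6 was at 54.3 FPKM with short and 24.4 FPKM with long telomeres, a difference of 1.12. Id3 followed at 178 and 113 FPKM (0.65), Bmpr1a at 41.3 and 27.6 FPKM (0.56), Id1 at 57.4 and 39.1 FPKM (0.54), Bmpr2 at 82.4 and 61.1 FPKM (0.43), Bmp4 at 43.8 and 33.0 FPKM (0.40) and Smad6 at 14.8 and 11.1 FPKM (0.38). The transducers differed least, with Smad1 at 12.9 and 12.5 FPKM (0.04) and Smad5 at 20.6 and 21.9 FPKM (-0.08).

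Here 2 members were higher and 0 lower by at least 1. Of all genes, 4.71% were higher and 16.8% lower, and of the genes with a mean of at least 10 FPKM 5.13% and 10.4%. The median of the members was 0.48, beside -0.24 over all genes and -0.08 over genes with a mean of at least 10 FPKM. The authors' deposited table called 0.432% of genes and 0 members. All 12 endothelial markers were higher as well, with a median of 1.12 and a summed level of 654 FPKM with short and 317 FPKM with long telomeres. Macrophage markers were higher in 8 of 9 (median 0.69), neutrophil markers in 8 of 8 (median 0.91) and atrial markers in 5 of 6 (median 2.80). Also higher were 8 of 9 platelet (median 0.93), 6 of 7 erythroid (median 1.07) and 7 of 8 cardiomyocyte markers (median 0.30). So were 8 of 12 interstitial and fibroblast (median 0.13) and 5 of 8 smooth muscle markers (median 0.61). T cell markers were lower in 10 of 10 (median -5.34) and mesothelial markers in 5 of 7 (median -0.62). Their part in the member levels was not tested.

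Of the other 43 pathway genes 2 were higher by at least 1, both secreted antagonists. Chrdl1, a chordin-like BMP binder, was at 7.80 FPKM with short and 2.15 FPKM with long telomeres, and Fst at 41.1 and 17.0 FPKM. The 3 lower genes were ligands. Bmp5 was at 1.23 FPKM with short and 5.50 FPKM with long telomeres, Bmp7 at 0.548 and 2.23 FPKM, and Gdf7 at 1.62 and 4.40 FPKM. With a mean of at least 10 FPKM, 1 of 19 was higher and 0 lower.

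**Figure D4:**
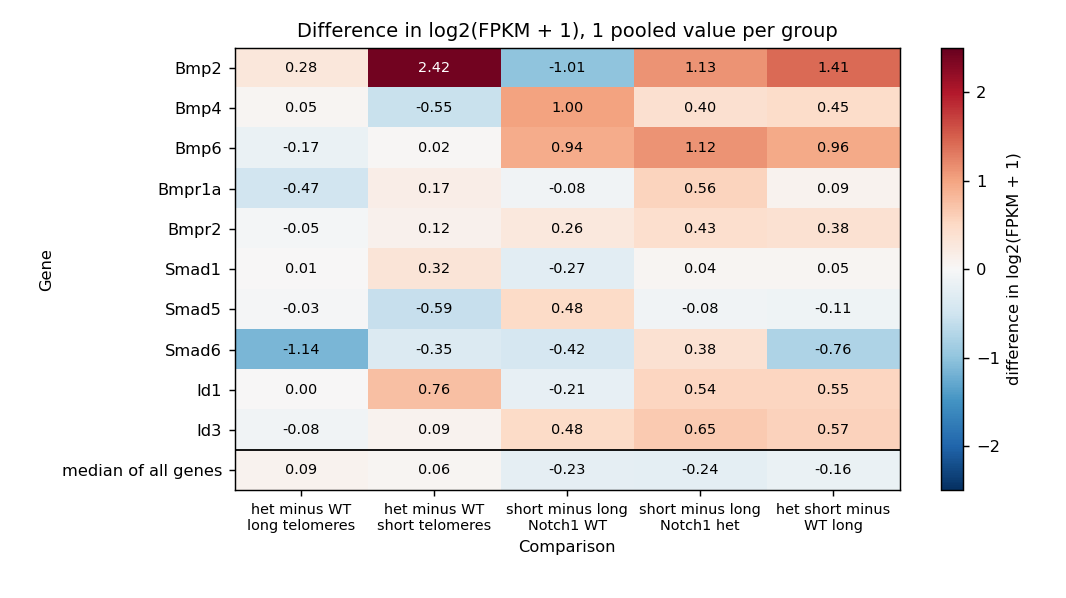
Difference in log2(FPKM + 1) of each member (rows) in the 5 comparisons (columns), with the median of all genes in the last row. The column for short minus long telomeres in valves labelled heterozygous is positive for 9 of 10 genes, beside 6206 higher and 11732 lower over all genes. Bmp2 holds the largest value of the grid, 2.42.

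The valves labelled with both changes were also set against wild type valves with long telomeres, a comparison that shares its groups with those above. Bmp2 was at 42.5 FPKM with both changes and 15.4 FPKM with neither (1.41), Bmp6 at 54.3 and 27.5 FPKM (0.96), Id3 at 178 and 119 FPKM (0.57) and Id1 at 57.4 and 39.0 FPKM (0.55). Smad6 was lower, at 14.8 and 25.8 FPKM (-0.76). The other 5 members lay between -0.11 for Smad5 and 0.45 for Bmp4. By at least 1, 1 member was higher and 0 lower. Of all genes, 7.48% were higher and 17.2% lower, and of the genes with a mean of at least 10 FPKM 8.26% and 11.7%. The median of the members was 0.41, beside -0.16 over all genes. The authors' deposited table called 0.526% of genes and 0 members. Of the other 43 pathway genes, Fst (41.1 and 8.65 FPKM) and Chrdl1 (7.80 and 2.86 FPKM) were higher by at least 1, and 10 were lower, among them Sost at 1.19 and 21.9 FPKM. With a mean of at least 10 FPKM, 1 of 19 was higher and 2 were lower. Bmp10, listed at 0 with both changes and at 35.9 FPKM with neither, was called different in the authors' deposited table. Endothelial markers were higher in 10 of 12 (median 0.77), macrophage markers in 7 of 9 (median 1.12) and neutrophil markers in 8 of 8 (median 2.18). Cardiomyocyte markers were higher in 8 of 8 (median 0.44) and erythroid markers in 4 of 7 (median 0.05). Smooth muscle markers were lower in 8 of 8 (median -2.39), platelet markers in 9 of 9 (median -3.78) and T cell markers in 10 of 10 (median -2.36). Also lower were 10 of 12 interstitial and fibroblast (median -0.31), 6 of 7 mesothelial (median -1.67) and 4 of 6 atrial markers (median -0.36). Their part in the member levels was not tested.

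The difference between heterozygous and wild type labels was set against itself in the 2 telomere settings by subtracting its long-telomere from its short-telomere value. The result was 2.14 for Bmp2, 0.80 for Smad6, 0.76 for Id1 and 0.64 for Bmpr1a. It was -0.60 for Bmp4 and -0.56 for Smad5, and between 0.17 and 0.31 for the remaining 4. By at least 1, 1 member was higher and 0 lower. Of all genes, 16.5% were higher and 17.4% lower, and of the genes with a mean of at least 10 FPKM 12.6% and 14.0%. For Bmp2 the separate changes for the Notch1 label and for short telomeres add up to -0.73, while the valves with both stood at 1.41. For Smad6 they add up to -1.56, and the valves with both stood at -0.76. Notch1 itself had a value of 1.09 on this measure. These differences between settings were not tested.

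The summed level of Bmp2, Bmp4 and Bmp6 was 141 FPKM and 125 FPKM in the short-telomere valves labelled heterozygous and wild type, against 76.2 and 74.6 FPKM in heterozygous and wild type valves with long telomeres, levels that depend on how the groups are scaled to each other. Shares and ratios within a group do not. Bmp2 made up 30.3% of that sum in the short-telomere valves labelled heterozygous and 5.71% in those labelled wild type, and 24.8% and 20.6% in heterozygous and wild type valves with long telomeres. In the short-telomere valves labelled wild type Bmp4 made up 51.6%, against 31.1% in those labelled heterozygous. The shares in a group have a fixed sum, so that a low share of a ligand raises the rest together. The share of Bmp6 varied less, from 31.9% to 42.7%.

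The same short-telomere valves labelled wild type stood apart in some other ratios and not in others. Smad1 was at 0.32 of the level of Smad5 there, against 0.63 in those labelled heterozygous, and at 0.57 and 0.56 in heterozygous and wild type valves with long telomeres. Id1 was at 0.20 of the level of Id3 there, against 0.32 in those labelled heterozygous, and at 0.35 and 0.33 in heterozygous and wild type valves with long telomeres. Bmpr1a was at 0.48 of the level of Bmpr2 there, within the range of the other groups, 0.45 to 0.61. The summed ligands were at 1.11 of the summed receptors there, beside 1.14 in those labelled heterozygous. The inhibitor Smad6 had its highest ratio to summed Smad1 and Smad5 in wild type valves with long telomeres, 0.74, against 0.32 in heterozygous valves with long telomeres, and the short-telomere groups labelled heterozygous and wild type lay between, at 0.44 and 0.46. The short-telomere valves labelled wild type were also the group with the highest summed neutrophil markers, 1780 FPKM against 172 FPKM in those labelled heterozygous, and with the most genes listed at 0, 2010 of 18073.

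**Figure D5:**
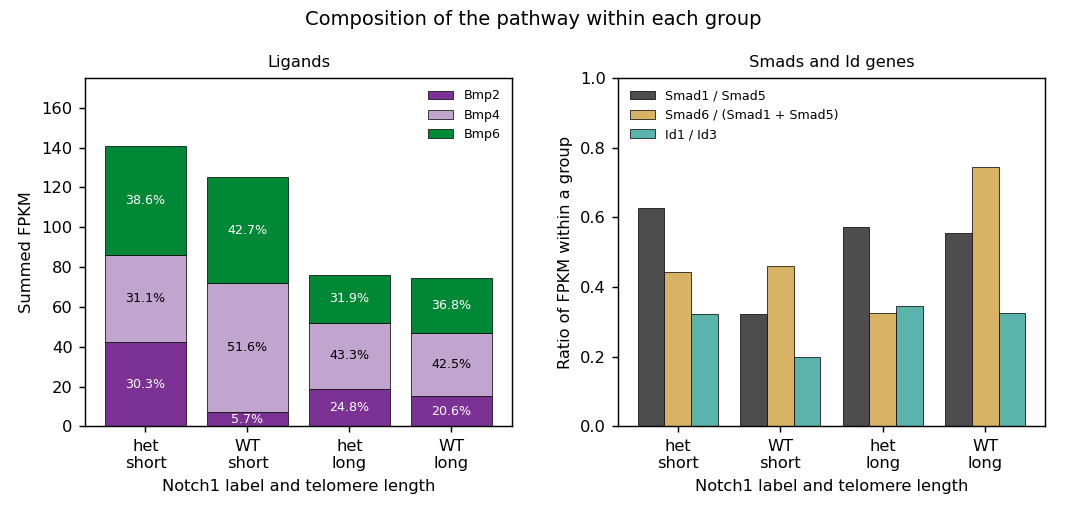
Left, summed FPKM of the 3 ligands per group with the share of each; right, ratios of FPKM within a group. The Bmp2 share is 5.71% in the short-telomere valves labelled wild type and 20.6% to 30.3% in the other groups, and the ratio of Smad6 to summed Smad1 and Smad5 is highest, 0.74, in wild type valves with long telomeres.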

How the data were processed

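RNA was isolated from 3 leaflets per mouse after 20 minutes in collagenase at 37 °C, and cDNA was amplified by an isothermal method that keeps no strand, per the labels' protocols. The submitters' processing notes list build mm9 and the tools FastQC, TopHat, SAMtools and Picard, with neither roles nor versions. Per the file headers, the authors' values are FPKM, and each group has a single deposited value for a gene. Which tools made the FPKM and the calls is not given in the sources used here. Call columns hold 0 or 1. Because a header occurs on both columns 8 and 9, each call column was matched to the groups whose called genes were all at least 4-fold apart.

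Differences used a pseudocount of 1 and no filter. A simulation without noise checked only that the code returned set differences with the right sign. It cannot show how reliable the differences between these groups are. The members and lists were chosen with earlier results of these data known. All members are named. Of the other pathway genes, the rule names up to 6 per direction and comparison past a difference of 1, and any called gene. The lists held 61 genes, 53 of them found. Without strand, exon overlaps cannot be told apart for Bmp4 (Gm15217), Bmp6 (Txndc5) and Bmpr1a (Gm17110), nor, on the same strand, for Smad5 (Gm27301). Promoters were matched by symbol for 8 of 10 members. Alternatives were a pseudocount of 0.1, median scaling, scaling without mitochondrially encoded genes, a minimum mean of 1 or 10 FPKM, and a difference of 2. The software was Python 3.11.15 with pandas 2.3.3, numpy 2.4.6 and matplotlib 3.10.9.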

Additional observations from a re-analysis of the deposited data

Results flagged for a closer look

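Bmp2 lay in opposite directions with telomere length in the 2 Notch1 settings. It was higher with short than with long telomeres in valves labelled heterozygous, by 1.13 on the log2 scale, and lower in those labelled wild type, at -1.01, so that the 2 differences were 2.14 apart. Msx2, a homeobox gene of the response list, lay in opposite directions with the Notch1 label. With short telomeres it was higher in the valves labelled heterozygous than in those labelled wild type, by 1.59. With long telomeres it was lower, at -1.29, so that the differences were 2.88 apart. Its levels were low, at 2.20 and 0.0664 FPKM in the short-telomere valves labelled heterozygous and wild type, and at 0.966 and 3.82 FPKM in heterozygous and wild type valves with long telomeres. Both results rest on the labels of the short-telomere groups, whose Notch1 levels run against them (23.3 FPKM in the valves labelled heterozygous, 16.6 FPKM in those labelled wild type). With these labels exchanged, Bmp2 would be set at 7.15 against 18.9 FPKM in heterozygous and at 42.5 against 15.4 FPKM in wild type valves, the reverse directions, and Msx2 would be lower in heterozygous valves in both settings. Each rests on 1 pooled value per group, and the differences between settings were not tested.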

How the results depend on the processing

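The counts of members past a difference of 1 were the same with a pseudocount of 0.1 and with a minimum mean of 1 or 10 FPKM, in all 5 comparisons and in the difference between the Notch1 effects. With median scaling, the count for both changes against neither was 2 in place of 1, since Bmp6 passed at 1.11. With scaling without mitochondrially encoded genes, the count for telomere length in valves labelled Notch1 wild type was 1 in place of 2. With a difference of 2, which is 4-fold, the count was 0 in the long-telomere Notch1 comparison, in both telomere comparisons and for both changes against neither, and Bmp2 alone was left in the short-telomere Notch1 comparison. Of 60 single differences, signs turned in 8 with median scaling and in 5 with scaling without mitochondrially encoded genes, among values under 0.25 in size. A pseudocount of 0.1 moved 17 of 60 list counts, median scaling moved 13, and scaling without mitochondrially encoded genes moved 3.

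No paired analysis was possible because the table holds 1 pooled value per group, so that leaving out a library was also not possible. Depth per library is unknown, amplified libraries from small samples are noisy at low levels, and pooled values hide the case of a single mouse setting a level.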

Other observations

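Among pathway genes not described above, chosen after their values were seen, Eng, a co-receptor of endothelium, was at 126 and 112 FPKM in the short-telomere valves labelled heterozygous and wild type, and at 118 and 177 FPKM in heterozygous and wild type valves with long telomeres. Twsg1, a secreted modulator of BMP binding, was at 116 and 156 FPKM in the short-telomere valves labelled heterozygous and wild type, and at 86.8 and 97.9 FPKM in heterozygous and wild type valves with long telomeres. Smad7, which inhibits both BMP and TGF-beta signals, was at 32.2 and 22.7 FPKM in the short-telomere valves labelled heterozygous and wild type, and at 15.9 and 28.1 FPKM in heterozygous and wild type valves with long telomeres. Like Smad6 it was lower in heterozygous than in wild type valves with long telomeres. With short telomeres Smad7 was higher, and Smad6 lower, in the valves labelled heterozygous.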
